A study of Mus musculus with 12 samples.

Results

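Genes that occupy very long stretches of the genome were examined in mouse liver 24 h after the alkylating mutagen ENU (N-ethyl-N-nitrosourea). A gene was taken when its locus in the deposited table spanned more than 400 kb and its level reached 1 FPKM (fragments per kilobase of transcript, scaled to the reads counted in genes) in at least 3 of the 12 libraries. Fhit, Wwox, Immp2l and genes close to Tert on chromosome 13 were left out. Of 369 loci over 400 kb, 7 were left out in this way and 267 did not reach the level, 64 of them listed at 0 in every library. The remaining 95 genes were members of the 12434 genes tested, out of 49584 in the table. The level is a measured value, so the 95 are not all long liver genes. In particular, 12 of them (among them Arhgap6, Bbs9, Cdh13, Gmds, Grm8, Naaladl2, Pard3b, Park2, Rbms3, Slc9a9 and Smyd3) reached 1 FPKM in saline libraries only, so a lower value after ENU was in part built into their selection. No gene reached it in ENU libraries only.

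The libraries came from 4 groups of 3, all of liver from age-matched mice of the mixed strain C57BL/6/129/SvJ. They were G1 Tert-/- mice given ENU, G1 Tert-/- mice given saline, WT mice given ENU and WT mice given saline. Tert encodes the catalytic subunit of telomerase. ENU was given once into the peritoneum at 150 µg per g, and the labels do not say whether each library came from a separate animal, so p-values measure the spread between these libraries. Gene-assigned reads per library ranged from 30053822 to 43680374. Tert-/- saline replicate 2 stood apart: reads fell in 17486 genes there and in 19576 to 20310 elsewhere, and its 20 most abundant genes took 29.5% of reads, against 17.4 to 21.7% elsewhere. Because this library widens the spread shared by all tests, the main counts are given with it and without it. Hepatocyte markers were the most abundant of the cell type lists, with 8 genes summing to 38500 to 97977 FPKM per library, and no gene of the 8 marker lists was at 0 in all libraries.

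A very long gene takes RNA polymerase II hours to traverse, and nearly all of that distance is intron. Lesions in the template stall the polymerase, and the chance of meeting at least one rises with the length to be transcribed. Long genes also depend on elongation factors, on topoisomerases that relieve torsion and on RNA-binding proteins that protect long introns, and several of the longest lie at common fragile sites. In liver, long genes encode enzymes, signalling proteins, adhesion molecules and transcription factors rather than one pathway.

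The 95 loci ranged from 400.4 to 2961 kb with a median of 541 kb, and 11 exceeded 1 Mb. They lay on 20 chromosomes, and 94 were protein coding. Exons in the GENCODE M21 annotation covered a median of 1.78% of the locus. A median of 11.2% of the exonic bases lay in the first 100 kb of the annotated gene. Their mean level over 12 libraries had a median of 3.96 FPKM, against 9.18 FPKM over all tested genes. Dpyd, which encodes the first enzyme of pyrimidine breakdown, was the most abundant at 172 FPKM. It was followed by Snd1 (a tudor-domain nuclease), Zbtb20 (a zinc finger repressor of fetal liver genes), the receptor phosphatase gene Ptprd and the polarity gene Pard3.

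The table's locus is the outer edge of all annotated transcripts and can be much longer than the main transcript. The longest principal coding transcript in the GENCODE M21 annotation exceeded 400 kb in 75 members and was shorter in 19; Snhg14 has no coding transcript. The 5 longest loci show the difference. Fgfr2 (2961 kb, chromosome 7, 130162451 to 133123350) and Chd1 (1690 kb, chromosome 17, 15704967 to 17394898) have principal transcripts of 102 kb and 67.6 kb, and RefSeq places these genes in 104 kb and 67.6 kb. Ptprd (2271 kb) has one of 509 kb, while for Dmd (2257 kb) and Macrod2 (1998 kb) the principal transcript fills the locus.

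RefSeq promoters on GRCm38.p6, from 250 bases before to 50 after the annotated start, were matched for 70 of the 95 genes. Those of Dpyd and Sugct, lower by limma in both genotypes when Tert-/- saline replicate 2 was left out (with all libraries only Sugct passed, in Tert-/- mice), and of Exoc4, higher in both fits, are shown so that the starts of long genes with opposite changes can be compared. Capitals mark GGGCGG, a GC box, or CCAAT on either strand.
Dpyd chr3:118561930-118562229 (+): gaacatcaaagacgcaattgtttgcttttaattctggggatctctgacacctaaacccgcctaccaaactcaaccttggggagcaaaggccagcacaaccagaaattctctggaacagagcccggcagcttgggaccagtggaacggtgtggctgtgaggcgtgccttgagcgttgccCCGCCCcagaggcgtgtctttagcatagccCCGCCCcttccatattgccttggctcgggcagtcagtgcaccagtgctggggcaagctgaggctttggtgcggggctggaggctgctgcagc
Sugct chr13:17694716-17695015 (-): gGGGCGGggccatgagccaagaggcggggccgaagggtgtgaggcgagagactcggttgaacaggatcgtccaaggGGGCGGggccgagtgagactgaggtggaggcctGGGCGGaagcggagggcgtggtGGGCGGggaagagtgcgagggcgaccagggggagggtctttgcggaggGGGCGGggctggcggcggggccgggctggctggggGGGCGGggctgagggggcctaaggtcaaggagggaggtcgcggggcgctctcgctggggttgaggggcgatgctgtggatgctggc
Exoc4 chr6:33248878-33249177 (+): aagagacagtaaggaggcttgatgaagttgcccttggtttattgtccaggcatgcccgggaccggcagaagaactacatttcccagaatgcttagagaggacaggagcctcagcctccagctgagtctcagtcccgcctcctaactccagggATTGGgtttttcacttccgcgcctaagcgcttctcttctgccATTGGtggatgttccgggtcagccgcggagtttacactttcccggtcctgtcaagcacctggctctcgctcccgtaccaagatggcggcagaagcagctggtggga
The windows of Dpyd and Sugct hold GGGCGG and that of Exoc4 holds CCAAT, with GC contents of 58.3%, 73.7% and 56.3%. Among the 70 matched long genes, 55.7% held GGGCGG, 31.4% held CCAAT and 5.71% held TATAAA. In 8891 matched tested genes the shares were 64.2%, 38.7% and 7.36%, and in all 32851 promoters they were 35.7%, 37.4% and 13.6%. The median GC content was 61.0% in the long genes and 60.7% in the tested genes.

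After ENU, most long genes had lower values in WT mice, and in Tert-/- mice once saline replicate 2 was left out (68 of 95 estimates below 0, against 49 with it). Relative to each gene's mean over the 6 saline libraries, the median long gene lay at -0.19, -0.23 and -0.17 on the log2(FPKM + 1) scale in Tert-/- ENU replicates 1 to 3, against -0.01, -0.84 and 0.16 in the Tert-/- saline libraries. It lay at -0.11, -0.08 and -0.25 in the WT ENU libraries, against 0.28, 0.22 and 0.05 in the WT saline libraries. All tested genes had medians of 0.13 to 0.21 in the 6 ENU libraries. Against the 5 saline libraries other than Tert-/- saline replicate 2, the long-gene medians were -0.32, -0.38 and -0.33 in Tert-/- ENU and -0.32, -0.21 and -0.38 in WT ENU libraries, and those of all tested genes 0.05 to 0.13. In all 6 ENU libraries the long genes were below the tested genes, and Tert-/- saline replicate 2 was low for both, at -0.84 and -0.41.

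**Figure D1:**
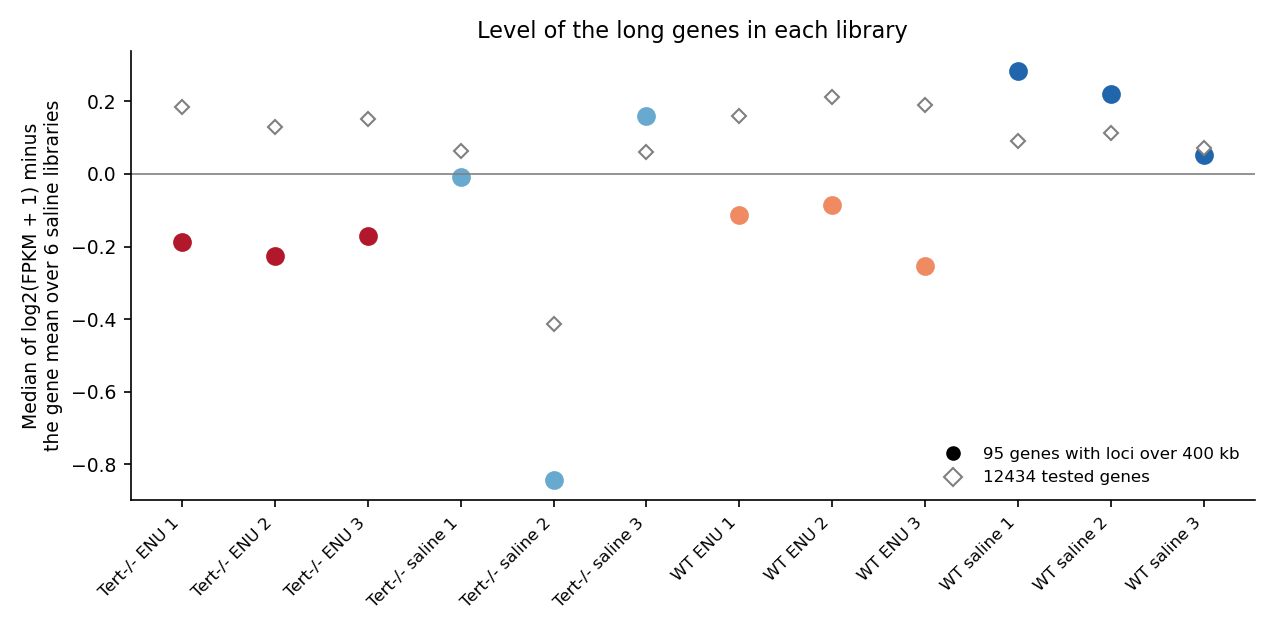
Median over the 95 long genes (filled circles) and over the 12434 tested genes (open diamonds) of log2(FPKM + 1) minus the gene's mean over the 6 saline libraries, for each library. The 6 ENU libraries have long-gene medians from -0.25 to -0.08 and all-gene medians from 0.13 to 0.21; Tert-/- saline replicate 2, which is part of the 6-library mean, lies lowest for both; without it in the mean the ENU medians are -0.38 to -0.21 and 0.05 to 0.13.

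In WT mice, 8 of the 95 genes fell after ENU by limma at an adjusted p of 0.05 (Benjamini-Hochberg over 12434 genes), and 1 rose. That is 8.42% lower, where 0.249% of all tested genes were called lower and 0.748% higher. Of the 8, 6 were among the 12 genes at 1 FPKM in saline libraries only, so the filter helped to fix their direction and the share cannot be read against that of all genes alone. Leaving out Tert-/- saline replicate 2, a library outside this contrast that enters the shared spread, gave 32 lower (2.1% of all tested genes) and 2 higher (8.55%). Of the 32 called lower without that library, 10 were among the same 12 genes. The median log2 fold change was -0.32, against 0.10 over all tested genes, and 79 of 95 estimates were below 0. In 48 members every WT ENU library was below every WT saline library (8.33% of tested genes), and in 8 every one was above (27%). Genes at 1 FPKM in saline libraries only, such as Park2, are among the 48. Among the 86 members with a mean of at least 1 FPKM over all libraries, 5 fell, 25 without that library, and the median was -0.24. Of the 12 genes at 1 FPKM in saline libraries only, Bbs9, Slc9a9 and Smyd3 are among the 86, and they are among the 5 that fell. Leaving out 1 WT library lowered the count of 8 to 1 (WT ENU replicate 3 or WT saline replicate 1), 3 (WT saline replicate 2) or 4 (WT ENU replicate 1 or 2).

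In Tert-/- mice, 11 of the 95 genes fell and 2 rose, where 1.45% of tested genes were called lower and 8.13% higher. Of the 11, 8 were among the 12 genes at 1 FPKM in saline libraries only. The counts were 28 lower (4.2%) and 4 higher (12.9%) without saline replicate 2. Of the 28 called lower without that library, 8 were among the same 12 genes. The scale of that library moved the middle of this contrast: the median over all tested genes was 0.24 with it and 0.07 without, and the median of the long genes was -0.02 with it and -0.26 without. Estimates below 0 numbered 49 with it and 68 without. Every Tert-/- ENU library was below every Tert-/- saline library in 20 genes (6.35% of tested genes), and below both other saline libraries in 49 (16.7%). It was above them in 12 genes in either case (24.5% and 29.6% of tested genes). Genes at 1 FPKM in saline libraries only, such as Park2, are among the 20 and the 49. Rescaling by median ratios gave 19 lower and 1 higher, and quantile normalization 20 lower and 1 higher. Leaving out Tert-/- ENU replicate 1, 2 or 3 gave 4, 5 and 4 lower and 1 higher each, and leaving out saline replicate 3 gave 14 higher.

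Many of the calls were shared by the genotypes. Of the 8 that fell in WT and the 11 that fell in Tert-/- mice, 7 were shared (Park2, Cdh13, Pard3b, Smyd3, Slc9a9, Cpq and Bbs9), which is 87.5% of the WT list and 63.6% of the Tert-/- list. Without Tert-/- saline replicate 2, 19 were shared, 59.4% of 32 and 67.9% of 28. The 2 comparisons use separate control groups and share only the estimate of spread, but 6 of the 7 (all but Cpq) and 8 of the 19 reached 1 FPKM in saline libraries only, so these overlaps rest in large part on genes that passed the filter through saline.

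**Figure D2:**
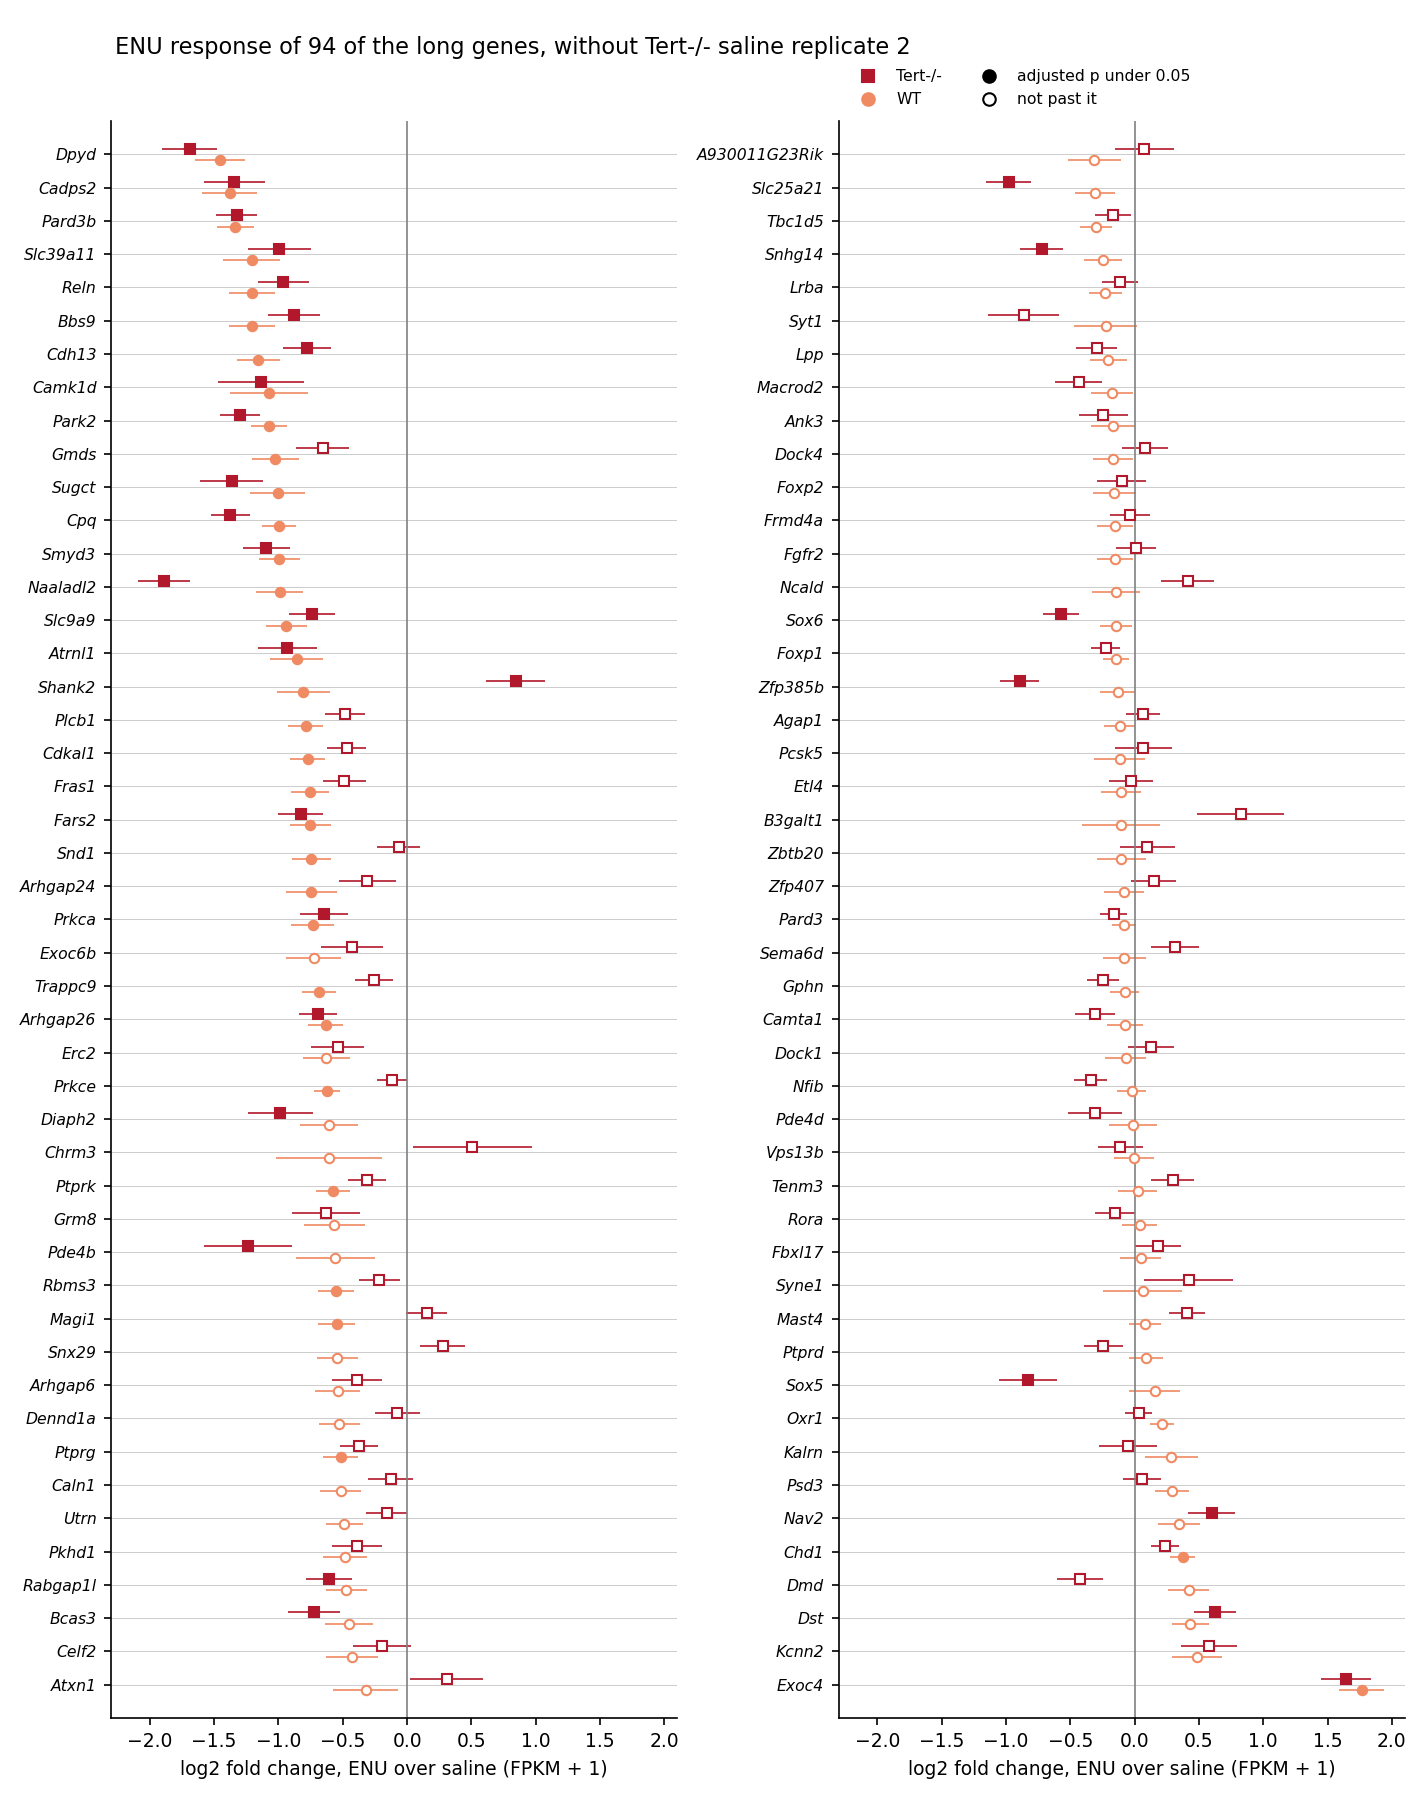
Log2 fold change of ENU over saline on the log2(FPKM + 1) scale for 94 of the 95 genes, in Tert-/- mice (squares) and WT mice (circles), fitted without Tert-/- saline replicate 2 and ordered by the WT value from the lowest at the upper left to Exoc4 at the lower right. Bars are standard errors and filled symbols mark an adjusted p under 0.05 by limma, reached among all 95 genes by 28 lower and 4 higher in Tert-/- mice and 32 lower and 2 higher in WT mice.

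Of 11 enzymes and transporters of metabolism, a list chosen by function, 4 fell in Tert-/- and 1 in WT mice (7 and 8 without Tert-/- saline replicate 2), 10 of 11 estimates were below 0 in each genotype, and the medians without that library were -0.83 and -0.88. Over all tested genes 1.45% and 0.249% were called lower (4.2% and 2.1% without it), but the WT call (Slc9a9) and 3 of the 4 Tert-/- calls (Slc9a9, Gmds and Naaladl2) were of genes at 1 FPKM in saline libraries only. The list is part of the 95, and no test set it apart from the others. Dpyd (chromosome 3, 118562129 to 119432924, 871 kb) was at 110, 76.8 and 116 FPKM in Tert-/- ENU libraries and at 310, 82.8 and 335 FPKM in Tert-/- saline libraries. It was at 101, 110 and 67.3 FPKM in WT ENU libraries, against 261, 262 and 230 FPKM in WT saline libraries. Every ENU value was below every saline value except that of Tert-/- saline replicate 2. With all libraries Dpyd did not pass in either genotype (log2 fold change -1.04, SE 0.43, adjusted p = 0.136 by limma in Tert-/-, and -1.45, SE 0.43, adjusted p = 0.172 in WT). Without that library it was lower in both, by -1.69 (SE 0.21, adjusted p = 0.00149) and -1.45 (SE 0.19, adjusted p = 0.00188), and by voom on the recovered reads with all libraries it passed in both (adjusted p = 0.037 and 0.0465).

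Fars2, the phenylalanyl-tRNA synthetase of mitochondria, fell in Tert-/- mice. Its values were 8.95, 7.87 and 6.84 FPKM in Tert-/- ENU libraries, against 15.5, 29.1 and 13.9 FPKM in Tert-/- saline libraries (log2 fold change -1.14, SE 0.26, adjusted p = 0.0215; -0.83 without saline replicate 2, its highest library). In WT mice it averaged 7.98 ± 2.0 FPKM after ENU and 13.9 ± 0.665 FPKM after saline (SD, n = 3 each; adjusted p = 0.245, and 0.0172 without that library). Gmds, which makes the precursor of GDP-fucose, fell in Tert-/- mice (log2 fold change -1.03, SE 0.28, adjusted p = 0.0403), but it rested on 3 to 14 reads per Tert-/- ENU library and its adjusted p was 0.05 without saline replicate 2, which held 3.02 FPKM against 0.76 and 0.91 in the other 2. The endosomal sodium-proton exchanger gene Slc9a9 fell in both genotypes. It was at 0.38 to 0.51 FPKM in Tert-/- ENU libraries and 1.30 to 1.54 in Tert-/- saline libraries, and at 0.51 to 0.77 in WT ENU libraries and 1.48 to 2.65 in WT saline libraries.

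Slc39a11, which encodes a zinc transporter and was chosen after its values were seen, passed in both genotypes by limma without Tert-/- saline replicate 2 and by voom with all libraries. It was at 15.7, 16.9 and 8.49 FPKM in Tert-/- ENU libraries and at 29.8, 14.6 and 24.8 in Tert-/- saline libraries. In WT it was at 9.85 to 13.5 FPKM after ENU and 25.6 to 33.1 after saline, with no overlap, and a tested gene overlaps it on the other strand.

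Cpq and Sugct, also of metabolism but not in that list, had lower values after ENU in both genotypes. Cpq, a secreted carboxypeptidase (chromosome 15, 33083129 to 33594552), was at 13.6, 10.8 and 11.8 FPKM in Tert-/- ENU libraries, against 27.8, 22.6 and 38.3 FPKM in Tert-/- saline libraries. Its WT values were 11.7, 14.7 and 11.2 FPKM after ENU, against 25.8, 26.0 and 25.6 FPKM after saline. The groups did not overlap in either genotype, and the log2 fold changes were -1.20 (SE 0.19, adjusted p = 0.00518 by limma) in Tert-/- and -1.0 (SE 0.19, adjusted p = 0.0293) in WT mice. Sugct, a mitochondrial CoA-transferase of glutarate metabolism, was at 9.53, 5.87 and 12 FPKM in Tert-/- ENU libraries, against 23.0, 17.8 and 25.5 in Tert-/- saline libraries (log2 fold change -1.22, SE 0.24, adjusted p = 0.0133). It averaged 7.93 ± 1.48 FPKM in WT ENU livers and 16.9 ± 2.68 FPKM in WT saline livers (SD, n = 3 each), again without overlap, with an adjusted p of 0.0867 and, without Tert-/- saline replicate 2, 0.0184.

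**Figure D3:**
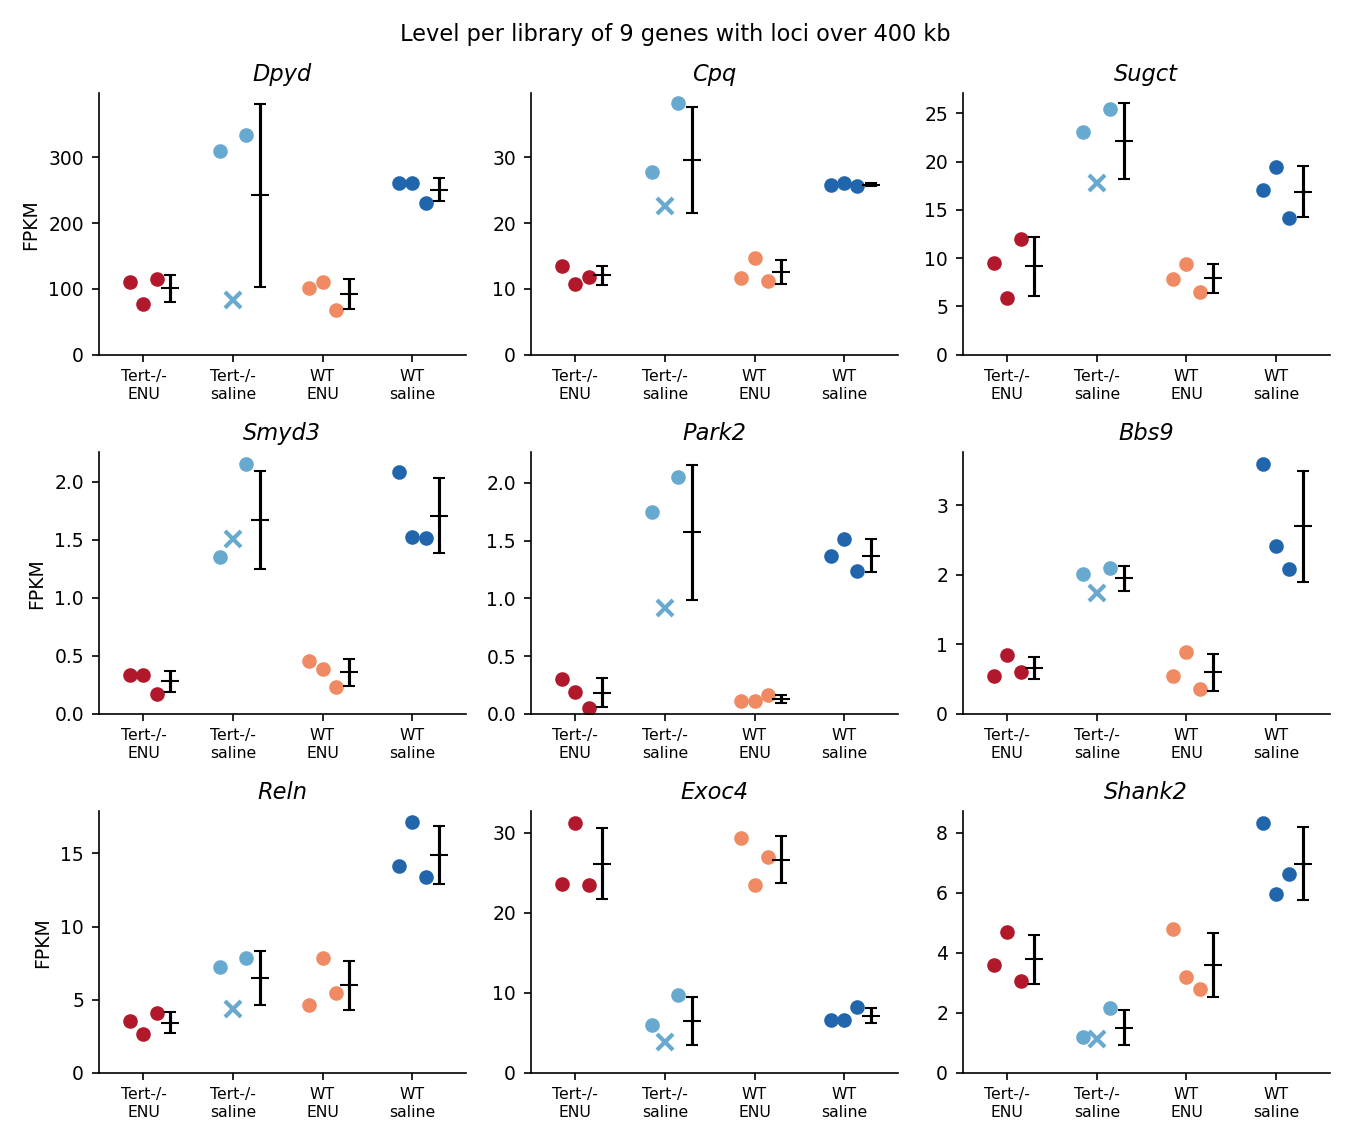
FPKM per library of 9 long genes in Tert-/- ENU, Tert-/- saline, WT ENU and WT saline livers, with the mean and SD beside each group; crosses mark Tert-/- saline replicate 2. Cpq, Sugct, Smyd3, Park2 and Bbs9 are lower in every ENU library of a genotype than in its saline libraries, Exoc4 is higher, and Shank2 is lower after ENU in WT and higher in Tert-/- livers.

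Several of the genes that fell in both genotypes were of low abundance. Park2 encodes parkin, a ubiquitin ligase that marks damaged mitochondria, and its human counterpart lies at a common fragile site. It was at 0.31, 0.19 and 0.05 FPKM in Tert-/- ENU libraries, against 1.74, 0.92 and 2.05 FPKM in Tert-/- saline libraries. In WT it was at 0.11, 0.11 and 0.16 FPKM after ENU, against 1.36, 1.51 and 1.23 FPKM after saline. These are 4 to 20 reads per ENU library and 53 to 132 per saline library, with no overlap in either genotype. The pseudocount compresses such changes: the log2 fold changes were -1.10 (SE 0.18) in Tert-/- and -1.07 (SE 0.18) in WT mice on the log2(FPKM + 1) scale, and -3.66 (SE 0.48) and -3.47 (SE 0.50) by voom on the recovered reads.

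Smyd3, a lysine methyltransferase gene, was at 0.33, 0.33 and 0.17 FPKM in Tert-/- ENU libraries, against 1.35, 1.51 and 2.15 FPKM in Tert-/- saline libraries. Its WT values were 0.46, 0.39 and 0.23 FPKM after ENU, against 2.08, 1.52 and 1.52 FPKM after saline. It fell by 1.05 (SE 0.16, adjusted p = 0.00508 by limma) in Tert-/- and by 0.99 (SE 0.16, adjusted p = 0.013) in WT mice. Bbs9, a subunit of the BBSome that carries cargo in cilia, averaged 0.66 ± 0.16 and 0.60 ± 0.27 FPKM in Tert-/- and WT ENU livers and 1.95 ± 0.19 and 2.69 ± 0.80 FPKM in the matching saline livers (SD, n = 3 each; adjusted p = 0.0216 and 0.0086). Naaladl2, chosen after its values were seen, had 5 to 29 reads per Tert-/- ENU library and 264, 30 and 453 in the Tert-/- saline libraries (log2 fold change -1.34, SE 0.37, adjusted p = 0.0416).

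Among adhesion, polarity and cytoskeleton genes, 2 of 14 fell in Tert-/- and 3 of 14 in WT mice (1.45% and 0.249% of all tested genes). Of these, Cdh13 and Pard3b reached 1 FPKM in saline libraries only. Without Tert-/- saline replicate 2, 4 fell and 2 rose in Tert-/- mice (4.2% and 12.9%), and 4 fell and 0 rose in WT mice (2.1% and 8.55%). The median was 0.12 in Tert-/- mice (5 below 0), turning to -0.20 without saline replicate 2, and -0.19 in WT mice. Pard3b, a relative of the polarity gene Pard3, was nearly absent after ENU. It had 3, 0 and 0 reads in Tert-/- ENU libraries, against 253, 44 and 251 in Tert-/- saline libraries, and 1, 7 and 1 in WT ENU libraries, against 365, 234 and 250 in WT saline libraries. At these depths a count of 0 allows up to 3 reads, or 0.016 and 0.015 FPKM in the 2 libraries concerned, counting error only. On the log2(FPKM + 1) scale it fell by 1.01 (SE 0.23, adjusted p = 0.0232 by limma) in Tert-/- and by 1.33 (SE 0.23, adjusted p = 0.0166) in WT mice, and an antisense gene lies inside its locus. Pard3 itself was at 25.2 ± 1.53 FPKM in Tert-/- ENU and 25.7 ± 5.44 FPKM in Tert-/- saline livers, and at 26.2 ± 1.58 and 27.8 ± 0.78 FPKM in WT ENU and WT saline livers (SD, n = 3 each; adjusted p = 0.978 and 0.89).

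Cdh13, the glycolipid-anchored T-cadherin, was at 0.08 to 0.27 FPKM in Tert-/- ENU libraries, against 0.74 to 1.06 FPKM in Tert-/- saline libraries (adjusted p = 0.0254 by limma). In WT livers it was at 0.05 to 0.24 FPKM after ENU, against 1.04 to 1.88 FPKM after saline (adjusted p = 0.0048). Reln, a secreted matrix protein made in liver by stellate cells, fell in WT mice, to 4.63, 7.88 and 5.43 FPKM after ENU, against 14.1, 17.1 and 13.4 after saline (log2 fold change -1.21, SE 0.24, adjusted p = 0.0358). In Tert-/- mice it was at 3.55, 2.63 and 4.08 FPKM after ENU, against 7.20, 4.36 and 7.87 after saline (adjusted p = 0.0698, and 0.0104 without saline replicate 2). In all 8 stellate cell markers, Reln included, the summed level was 51.0 to 59.8 FPKM in Tert-/- ENU libraries and 60.2 to 73.3 in Tert-/- saline libraries, and 66.9 to 102 in WT ENU libraries and 101 to 129 in WT saline libraries. Reln was the 1 stellate marker called in WT mice. Of 9 sinusoidal endothelial markers 0 were called in either genotype (1 lower in Tert-/- and 4 in WT without Tert-/- saline replicate 2), with sums of 89.9 to 101 FPKM in Tert-/- ENU and 96.3 to 118 in Tert-/- saline libraries, and 96.1 to 142 in WT ENU and 148 to 180 in WT saline libraries. Of 4 tested erythroid markers 3 fell in Tert-/- and 1 in WT mice, and of 8 hepatocyte markers 2 and 0 (1.45% and 0.249% of all tested genes). Without Tert-/- saline replicate 2 the counts were 3 and 3 for erythroid and 3 and 1 for hepatocyte markers (4.2% and 2.1%). Of 8 Kupffer cell and 2 tested lymphocyte markers 0 were called in either genotype. In WT mice marker medians were -0.40 for hepatocytes, -0.53 for sinusoidal endothelium, -0.43 for Kupffer cells, -0.32 for stellate cells and -0.38 for lymphocytes. They were -0.24 for cholangiocytes and -2.36 for erythroid cells, beside -0.32 for the long genes. In Tert-/- mice, in the same order, they were -0.60, -0.09, -0.48, -0.11, -0.25, 0.01 and -3.15, beside -0.02. Without saline replicate 2 the Tert-/- values were -0.42, -0.27, -0.16, -0.12, -0.39, 0.35 and -2.55, beside -0.26. The part of these in the result was not tested. The 7 lymphocyte markers summed to 1.47 to 2.23 FPKM in Tert-/- ENU and 2.54 to 3.97 in Tert-/- saline libraries, and to 3.26 to 4.86 in WT ENU and 7.73 to 8.33 in WT saline libraries, without overlap. Fewer cells of a type and less RNA per cell cannot be told apart in whole liver, and the part of cell type makeup in these results was not tested.

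Dmd, which encodes dystrophin and has one of the longest transcripts in the genome, did not pass in either genotype. It was at 8.11, 6.42 and 8.26 FPKM in Tert-/- ENU libraries and 10.3, 2.30 and 10.7 FPKM in Tert-/- saline libraries, and at 8.13, 6.84 and 11.4 FPKM in WT ENU libraries and 6.49, 6.50 and 5.60 FPKM in WT saline libraries. The WT ENU libraries were all above the WT saline libraries, but the difference did not pass (log2 fold change 0.42, SE 0.39, adjusted p = 0.752; 0.111 without Tert-/- saline replicate 2). Macrod2, which removes ADP-ribose from proteins and is likewise of fragile site renown in human, averaged 1.48 ± 0.13 and 1.20 ± 0.28 FPKM in Tert-/- and WT ENU livers, against 2.51 ± 0.61 and 1.49 ± 0.26 FPKM in the saline livers (SD, n = 3 each; adjusted p = 0.0953 and 0.768).

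Of 15 signalling genes, 0 fell in either genotype in the fit to all libraries, with medians of 0.03 in Tert-/- mice (7 below 0) and -0.56 in WT mice (13 below 0). Without Tert-/- saline replicate 2, 4 fell in Tert-/- and 8 in WT mice (4.2% and 2.1% of all tested genes), and the Tert-/- median was -0.31. Examples chosen after their values were seen are the kinase genes Camk1d and Prkca. Prkca was at 1.25 to 1.99 FPKM in Tert-/- ENU libraries and at 3.26, 0.94 and 3.16 FPKM in Tert-/- saline libraries, and at 1.19 to 2.33 FPKM in WT ENU libraries and 3.30 to 3.95 FPKM in WT saline libraries. Ptprd overlapped between treatments in both genotypes, at 39.5 ± 3.71 and 34.9 ± 1.5 FPKM in Tert-/- and WT ENU livers, against 35.9 ± 21.8 and 32.8 ± 3.61 FPKM in the saline livers (SD, n = 3 each; adjusted p = 0.541 and 0.958).

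Of 10 transcription factor and chromatin genes, 1 (Smyd3) fell in each genotype, and 3 in Tert-/- and 2 in WT mice fell without Tert-/- saline replicate 2, with medians of -0.27 and -0.12 (-0.08 in Tert-/- mice with it). Over all tested genes 1.45% were called lower in Tert-/- and 0.249% in WT mice, and 4.2% and 2.1% without that library. Smyd3, and Rbms3 of the same list, reached 1 FPKM in saline libraries only. Zbtb20 was at 57.6 ± 8.85 FPKM in Tert-/- ENU and 39.7 ± 30.7 FPKM in Tert-/- saline livers, and at 43.9 ± 4.52 and 47.3 ± 6.05 FPKM in WT ENU and WT saline livers (SD, n = 3 each; adjusted p = 0.254 and 0.966). Of 4 genes for genome maintenance and for RNA and protein turnover, 1 (Park2) fell in each genotype in the fit to all libraries. The shares of all tested genes called lower were 1.45% in Tert-/- and 0.249% in WT mice, and Park2 reached 1 FPKM in saline libraries only. Without Tert-/- saline replicate 2, 1 fell in Tert-/- and 2 in WT mice (4.2% and 2.1% of all tested genes). Snd1, in the same list, was at 80.1, 87.1 and 75.7 FPKM in WT ENU libraries, against 132, 139 and 137 FPKM in WT saline libraries (adjusted p = 0.0853 by limma, and 0.0155 without Tert-/- saline replicate 2). In Tert-/- mice it was at 112, 79.1 and 110 FPKM after ENU and 123, 84.0 and 87.7 FPKM after saline (adjusted p = 0.912). The difference between the 2 ENU effects of Snd1 was 0.78 (SE 0.25) and did not pass (adjusted p = 0.67).

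Against the general direction, Exoc4 rose in both genotypes. It encodes a subunit of the exocyst, which tethers secretory vesicles to the plasma membrane (chromosome 6, 33249085 to 33973979, 725 kb, with a principal transcript of the same span). Its values were 23.6, 31.3 and 23.5 FPKM in Tert-/- ENU libraries, against 5.92, 3.79 and 9.71 FPKM in Tert-/- saline libraries. In WT livers they were 29.4, 23.5 and 27.0 FPKM after ENU, against 6.60, 6.58 and 8.22 FPKM after saline. The lowest ENU library was above the highest saline library in each genotype, and the log2 fold changes were 1.93 (SE 0.25, adjusted p = 0.00221 by limma) and 1.76 (SE 0.25, adjusted p = 0.0048). No other of the 12 membrane traffic genes was called in the fit to all libraries. Their median was 0.05 in Tert-/- mice (5 below 0), turning to -0.14 without saline replicate 2, and -0.37 in WT mice. Without that library 2 of the 12 fell in Tert-/- and 1 in WT mice (4.2% and 2.1% of all tested genes).

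Shank2, a scaffold protein known from synapses, differed between the genotypes by value. It was at 3.58, 4.69 and 3.07 FPKM in Tert-/- ENU libraries, against 1.19, 1.13 and 2.17 FPKM in Tert-/- saline libraries, and rose (log2 fold change 0.95, SE 0.23, adjusted p = 0.0268 by limma). In WT livers it was at 4.80, 3.19 and 2.80 FPKM after ENU, against 8.34, 5.96 and 6.62 FPKM after saline (log2 fold change -0.81, SE 0.23, adjusted p = 0.15, and 0.0347 without Tert-/- saline replicate 2). The groups did not overlap in either genotype, in opposite directions. The difference between the 2 effects was 1.75 (SE 0.32) and did not pass (adjusted p = 0.602; 0.183 without that library). Magi1, a scaffold of tight junctions, had the same opposite order (9.34 ± 0.24 and 6.69 ± 2.81 FPKM in Tert-/- ENU and saline livers, 8.20 ± 1.72 and 12.4 ± 1.64 FPKM in WT ENU and saline livers; SD, n = 3 each), with a difference of 1.05 (SE 0.38, adjusted p = 0.67). Next in the Tert-/- order, without passing, were Nav2 at 1.03 (SE 0.31, adjusted p = 0.057), Mast4 at 0.66 (SE 0.21, adjusted p = 0.0627) and the potassium channel gene Kcnn2 at 0.87 (SE 0.27, adjusted p = 0.0633). In WT mice Kcnn2, Nav2 and Dst followed Exoc4, at 0.49, 0.35 and 0.43, with adjusted p of 0.515 to 0.74.

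Among all tested genes, medians below 0 were confined to the classes with the longest loci. Over the 12434 tested genes, Spearman's rho between fold change and locus length was -0.07 in WT mice. In Tert-/- mice it was -0.07 without saline replicate 2 and 0.20 with it. In WT mice the median log2 fold change was 0.11 for 3921 genes under 10 kb, 0.12 for both 10 to 20 and 20 to 50 kb, 0.10 for 50 to 100 kb, 0.05 for 100 to 200 kb, -0.10 for 300 genes of 200 to 400 kb and -0.32 for the 95 over 400 kb. In Tert-/- mice without saline replicate 2 the medians in the same order were 0.10, 0.10, 0.07, 0.04, 0.03, -0.10 and -0.26. With that library they were 0.10, 0.23, 0.31, 0.35, 0.35, 0.18 and -0.02, so only the last classes turn down. The share of genes called lower without that library was 12% and 29.5% for 200 to 400 kb and over 400 kb in Tert-/- mice, and 9.67% and 33.7% in WT mice. This share was 3.44 to 4.33% and 1.31 to 1.96% in the shorter classes. Of the 28 and 32 calls over 400 kb, 8 and 10 were of genes at 1 FPKM in saline libraries only. Such genes were not counted in the other classes. The classes also differ in level, with median means of 7.98 FPKM under 10 kb, 11.5 at 10 to 20 kb and 3.96 over 400 kb. They differ in median transcript length as well (1004 bases under 10 kb and 2871 over 400 kb). The part of level and transcript length in the lower medians was not tested. Just inside the threshold were Dst and Dock4 at 400.4 kb and Pcsk5 at 405 kb, with log2 fold changes in WT mice of 0.43, -0.17 and -0.12. Just outside were Adk at 396 kb and Esr1 and Itpr2 at 394 kb, with -0.66, -0.17 and -0.46.

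**Figure D4:**
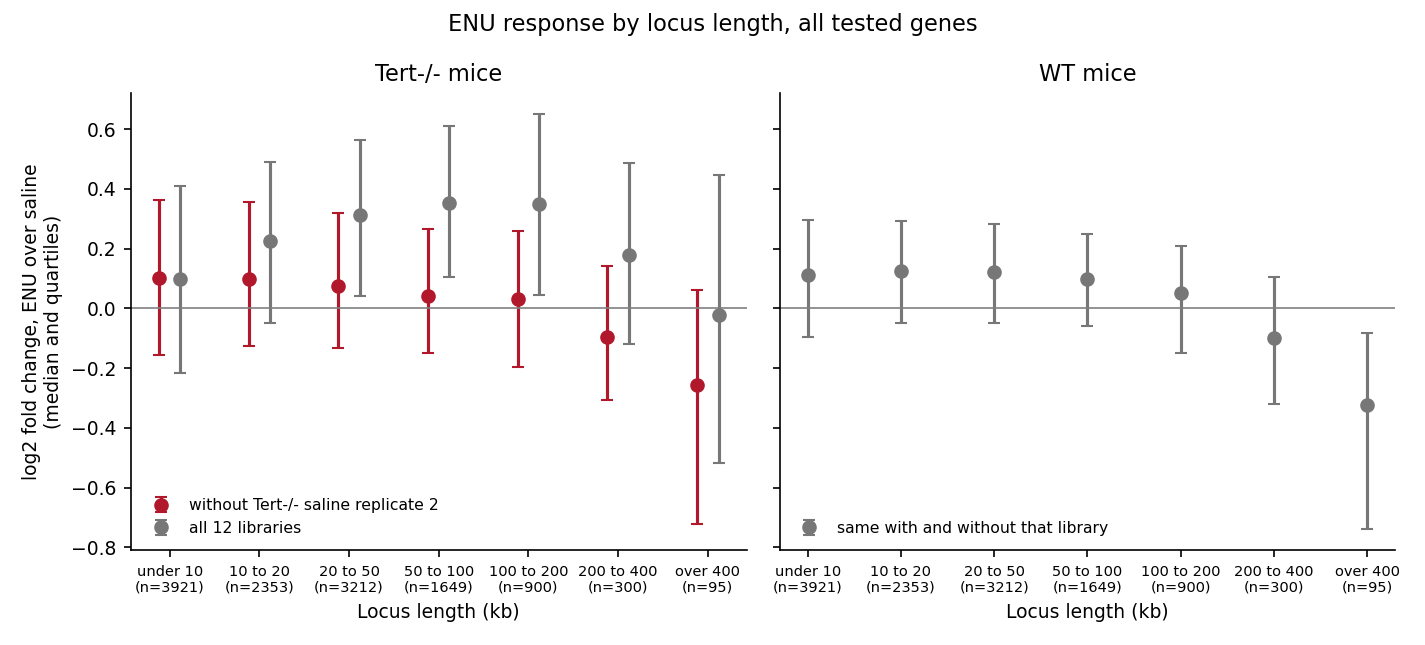
Median log2 fold change of ENU over saline, with quartiles as bars, for tested genes in classes of locus length, in Tert-/- mice (left) with and without saline replicate 2 and in WT mice (right), where the values are the same either way. The classes of 200 to 400 kb and over 400 kb lie lowest in WT mice, at -0.10 and -0.32, and in Tert-/- mice without that library, at -0.10 and -0.26.

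Members with a long and with a short principal transcript were set side by side. In Tert-/- mice without saline replicate 2, the 75 genes with a principal transcript over 400 kb had a median of -0.31 with 58 below 0 and 23 called lower, and the 19 with a shorter one had a median of 0.01 with 9 below 0 and 4 called lower; with that library the medians were -0.09 and 0.33. In WT mice the medians were -0.52, with 66 below 0, and -0.08, with 12 below 0; 30 and 2 were called lower without that library. All 12 genes at 1 FPKM in saline libraries only are among the 75. The 66 of the 75 with a mean of at least 1 FPKM had medians of -0.28 in Tert-/- (without that library) and -0.39 in WT mice. Of the 12, Bbs9, Slc9a9 and Smyd3 remain in the 66. All 8 genes called lower in WT and all 11 in Tert-/- mice in the fit to all libraries belonged to the 75. Spearman's rho between the fold change and the principal span was -0.36 in Tert-/- (without that library) and -0.27 in WT mice over 94 genes, and with the locus span it was -0.16 and 0.08 over 95. With the mean FPKM it was 0.20 and 0.33, and with the number of coding transcripts under 200 kb 0.27 and 0.37. The mean FPKM includes the ENU libraries, so a fall after ENU lowers it, and its positive rho was in part built in. These coefficients describe genes of the same libraries, which are not independent points. Chd1, a chromatin remodeller, has a short principal transcript and a short M21 gene, and only its locus in the table is long. It was at 24.8 ± 1.07 and 21.2 ± 2.42 FPKM in Tert-/- and WT ENU livers, against 15.8 ± 9.10 and 16.1 ± 0.78 FPKM in the saline livers (SD, n = 3 each). It passed in WT only without Tert-/- saline replicate 2 (log2 fold change 0.37, adjusted p = 0.0388 by limma). The 31 members with no coding transcript under 200 kb had medians of -0.48 in Tert-/- (without that library) and -0.55 in WT mice, and the 33 with 3 or more such transcripts had -0.16 and -0.14. With that library the Tert-/- medians were -0.23 and 0.27.

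**Figure D5:**
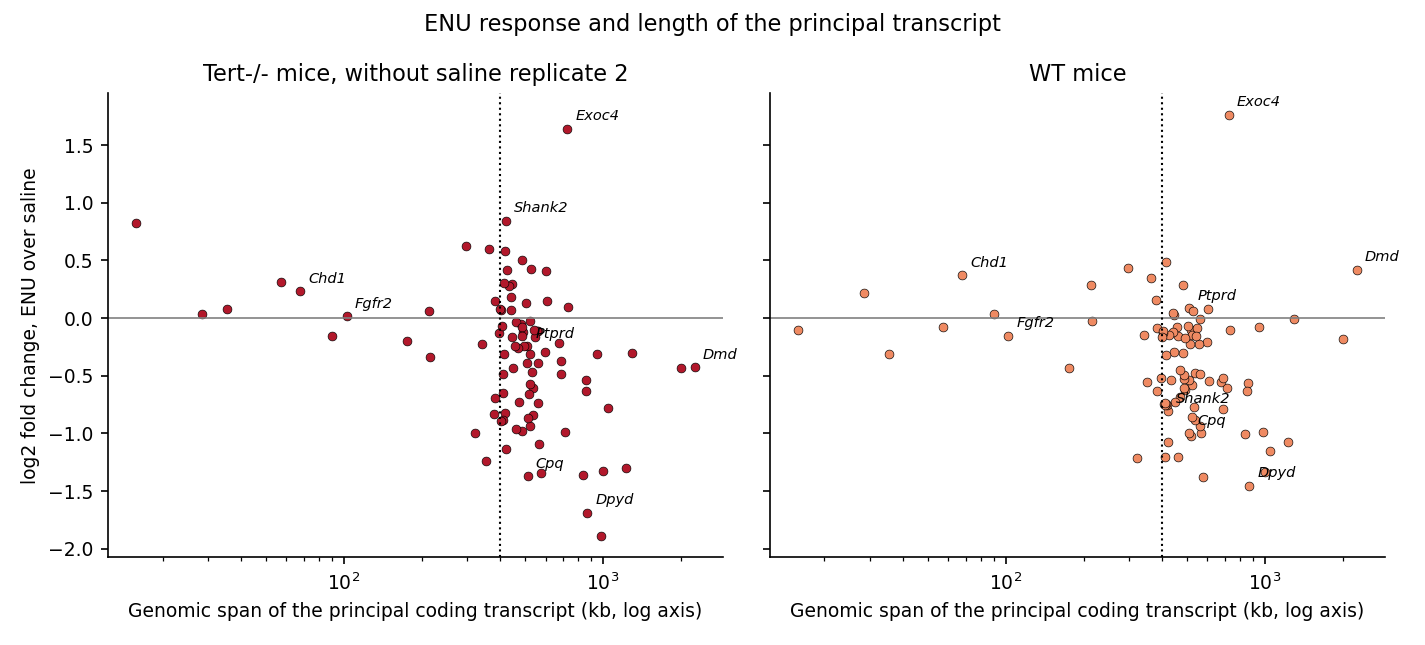
Log2 fold change of ENU over saline against the genomic span of the longest principal coding transcript (log axis, kb) for 94 long genes, in Tert-/- mice without saline replicate 2 (left) and in WT mice (right). The dotted line marks 400 kb; most of the 75 genes to its right lie below 0 and the 19 to its left are spread around 0, with Exoc4 the highest point in both panels.

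Shorter genes lying wholly inside the long loci numbered 35 among the tested genes, in 13 hosts and 18 of them in the Fgfr2 locus, and 17 ran in the host's direction. Their median log2 fold change was -0.02 in Tert-/- mice (without saline replicate 2) and 0.08 in WT mice, and 0.13 in Tert-/- mice with that library. Of the 35, 23 lay in loci whose gene RefSeq places within 400 kb (Fgfr2, Chd1 and Nfib), so that they need not lie inside a long gene; the other 12 had medians of -0.06 in Tert-/- (0.11 with that library) and 0.19 in WT mice. In the fit to all libraries 1 fell and 2 rose in Tert-/- mice, and 0 fell and 1 rose in WT mice (3 and 2, and 2 and 2, without that library). Over all tested genes 1.45% fell and 8.13% rose in Tert-/- mice, and 0.249% and 0.748% in WT mice. Without that library these shares were 4.2% and 12.9%, and 2.1% and 8.55%. Because the strand setting of the counting is not given, reads of the 16 long genes that overlap a tested gene on the other strand cannot be fully told apart from those of that gene.

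Genes whose products act on elongation were counted beside the long genes. Of 30 elongation and topoisomerase genes, 0 fell and 5 rose in Tert-/- mice and 0 changed by the test in WT mice. Without Tert-/- saline replicate 2, 1 fell and 9 rose in Tert-/- and 1 fell and 4 rose in WT mice. The shares of all tested genes called higher were 8.13% and 0.748% with that library and 12.9% and 8.55% without it. The median of the 30 was 0.54 in Tert-/- and 0.20 in WT mice, against 0.24 and 0.10 over all tested genes, and 0.24 against 0.07 in Tert-/- mice without that library. Polr2a, the largest subunit of RNA polymerase II, averaged 22.8 ± 1.19 and 24.0 ± 1.72 FPKM in Tert-/- and WT ENU livers, against 10.8 ± 5.0 and 16.1 ± 1.21 FPKM in the saline livers (SD, n = 3 each). The adjusted p was 0.0199 in Tert-/- and 0.375 in WT mice by limma. Without that library it passed in both, at 0.0104 and 0.0438. Of 11 transcription-coupled repair genes, 0 fell and 3 rose in Tert-/- mice (Ercc2, Ercc4 and Ercc5), and 0 changed by the test in WT mice; 5 and 4 rose without that library, with medians of 0.51 and 0.26 with it. Of 9 RNA-binding proteins known for long pre-mRNAs, none was called in either genotype in the fit to all libraries, and 2 rose in WT mice without that library.

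Genotype alone was compared in each treatment. In saline, 6 of the 95 genes were lower in Tert-/- than in WT livers and 0 higher, where 4.26% of tested genes were lower and 0.748% higher. Without Tert-/- saline replicate 2 the counts were 7 lower (8.2%) and 4 higher (4.68%), and the median was -0.08, against -0.01 over all tested genes; with it, the medians were -0.37 and -0.19. Every Tert-/- saline library was below every WT saline library in 25 genes (19.5% of tested genes) and above in 1 (6.42%), and without that library in 27 (24.8%) and 16 (22%). As shares of the 95 genes these counts were 26.3% and 1.05%, and without that library 28.4% and 16.8%. The lower shares were thus above those of all tested genes and the higher shares below them. These differences were not tested. The lower genes were Shank2, Reln, Arhgap24, Sema6d, Snx29 and Nav2, and all 6 were also called without that library, when Mast4 was lower and Dmd, Naaladl2, Slc25a21 and Zfp385b higher as well. The count of 6 was 0, 1 and 1 without WT saline replicates 1 to 3, 2, 3 and 2 without Tert-/- ENU replicates 1 to 3, 3 without WT ENU replicate 2 and 19 without Tert-/- saline replicate 3. Shank2 was lowest, at the FPKM values given above (log2 difference -1.69, SE 0.23, adjusted p = 0.012 by limma). Reln differed by -1.11 (SE 0.24, adjusted p = 0.0304 by limma). In this contrast 3 of 8 stellate, 4 of 9 sinusoidal endothelial and 1 of 8 Kupffer cell markers were lower. Without Tert-/- saline replicate 2 these counts were 4, 5 and 4. The part of these markers in the result was not tested. Arhgap24, a GTPase activator for Rac, was at 1.56, 0.74 and 1.95 FPKM in Tert-/- saline libraries, against 3.70, 4.0 and 5.05 FPKM in WT saline libraries (log2 difference -1.15, SE 0.25, adjusted p = 0.0306). The semaphorin gene Sema6d averaged 1.46 ± 0.70 FPKM in Tert-/- saline livers and 3.99 ± 1.12 FPKM in WT saline livers (SD, n = 3 each; adjusted p = 0.0346), and the sorting nexin gene Snx29 averaged 1.33 ± 0.87 FPKM in Tert-/- saline livers and 3.68 ± 0.45 FPKM in WT saline livers (adjusted p = 0.04).

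After ENU, 0 of the 95 genes differed between Tert-/- and WT livers by limma, and 0 of all 12434 tested genes did; at an unadjusted p under 0.05 there were 541 genes, 1 of them long, and by voom 591 and 2, with 0 past the adjusted threshold. The median log2 difference was -0.02, against -0.03 over all tested genes. The 3 Tert-/- ENU libraries were all below the WT ENU libraries in 7 long genes (10.4% of tested genes) and all above in 4 (5.56%). Reln had the lowest value, at 3.42 ± 0.73 FPKM in Tert-/- ENU livers and 5.98 ± 1.69 FPKM in WT ENU livers (SD, n = 3 each; log2 difference -0.65, SE 0.24, adjusted p = 1 by limma). The difference between the ENU effects passed for 0 of the 95 and 0 of all tested genes (at an unadjusted p under 0.05, 844 and 6 by limma and 882 and 9 by voom, for all and for long genes). Averaged over treatments, 5 long genes were lower in Tert-/- livers (3.39% of tested genes) and 0 higher (0.257%), and without Tert-/- saline replicate 2 the counts were 7 (9.18%) and 2 (3.88%). The 5 were Nav2, Reln, Arhgap24, Shank2 and Sema6d, all of which were also called in saline. The count of 5 was 0 without any 1 of the Tert-/- ENU or WT saline libraries or of WT ENU replicates 1 and 2, 3 without Tert-/- saline replicate 1 and 10 without its replicate 3.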

How the data were processed

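RNA from the livers described above was extracted with TRIzol and made into NEBNext Ultra libraries, according to the labels' protocols. The authors deposited 1 table of FPKM values on mm10; HISAT2 and HTSeq are named in the submitters' processing notes, with versions and strand setting not given in the sources used here. With GENCODE M21 transcript lengths, the deposited FPKM of 22372 of 26524 genes with any reads gave whole read counts within 0.01 read; for 4151 others the length was itself fitted so that counts came out whole, so their agreement is no check. FPKM is relative to the reads counted in genes, so a few abundant genes lower all others.

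Genes at 1 FPKM or more in at least 3 libraries were tested on log2(FPKM + 1) with limma 3.58.1 (R 4.3.3; mean-variance trend, group means over 12 libraries), with Benjamini-Hochberg adjustment over 12434 genes and a threshold of 0.05. Fold changes on this scale understate changes of low genes. limma-voom on the recovered reads, other scalings, array weights, pseudocounts, filters and libraries left out were alternatives. The members and gene lists were chosen with earlier results of these data known. Named genes are up to 10 per direction past the threshold by moderated t for ENU (up to 5 for genotype and interaction, filled to 5 with genes given as values only), the 5 longest loci, the 5 most abundant members and 3 genes on each side of the length threshold; others are said to be chosen after their values were seen. Transcript spans came from GENCODE M21, with 49325 of 49584 gene IDs matched. The scripts were run with Python 3.11.15 and checked on simulated data. The values of 1 member are not reported here; it is counted in all totals.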

Additional observations from a re-analysis of the deposited data

How the results depend on the processing

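The counts of long genes called, given as lower then higher, were 11 and 2 for ENU in Tert-/- mice, 8 and 1 for ENU in WT mice, 6 and 0 for genotype in saline, 5 and 0 for genotype averaged over treatments, and 0 and 0 for genotype after ENU and for the interaction. Over the alternatives run, the values of the named genes stayed on the same side of the threshold in 465 cases, lost the call in 126 and reversed in 0. For ENU in Tert-/- mice the lower count was 33 with array weights, 6 with a mean of at least 1 FPKM, 19 with median-ratio scaling, 20 with quantile normalization, 18 by voom, 7 with no filter and 0 with the 2 groups alone; the higher count was 6 with array weights, 1 with median-ratio scaling, quantile normalization or no filter, and 0 with the 2 groups alone. For ENU in WT mice the lower count was 40 with array weights, 5 with a mean of at least 1 FPKM, 14 with median-ratio scaling, 17 with quantile normalization or by voom, and 30 with the 2 groups alone; the higher count was 2 with array weights. For genotype in saline the lower count was 20 with array weights, 1 with no filter and 0 with the 2 groups alone, and the higher count was 5 with array weights. Averaged over treatments, the lower count was 19 with array weights, 0 with no filter and 3 with a pseudocount of 0.1, and the higher count was 3 with array weights; 1 gene was higher in the interaction with array weights. Chosen after seeing the data, median-ratio scaling and voom without Tert-/- saline replicate 2 gave 34 and 35 lower for ENU in Tert-/- mice, 37 and 40 lower in WT mice, 7 and 7 higher for genotype in saline, and 3 and 2 higher for genotype averaged. Leaving out 1 library at a time gave 4 to 28 lower and 1 to 14 higher for ENU in Tert-/- mice, 1 to 32 and 1 to 2 in WT mice, 0 to 19 and 0 to 4 for genotype in saline, and 0 to 10 and 0 to 2 averaged. The cause of these changes was not tested, beyond fewer genes or samples where a filter or library was changed. Deviations of libraries with the same replicate number had correlations from -0.156 to 0.208, and those with different numbers from -0.255 to 0.237. Between WT saline and WT ENU libraries the same-number values were 0.123, 0.0989 and 0.165, and the others -0.128 to 0.0121. With 3 libraries per group these values cannot decide whether the numbers pair libraries. With a replicate block the counts were 11 and 3, 6 and 1, 3 and 0, and 4 and 0 in the order first given. Depth limits 13 long genes with under 30 reads in a library.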
